A study of Mus musculus with 6 samples.

Results

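Cells that leave the primitive streak migrate over matrix and over each other, and the genes that steer such movement were first described in growing axons. The genes described here are 60 guidance genes of mouse mesoderm explants, out of 46078 genes in the count tables. They were chosen by symbol alone: 8 ephrins, 14 Eph receptors, 20 semaphorins, 9 plexins, 2 neuropilins, 3 Slits and 4 Robos. Polyadenylated RNA was sequenced from explants of mesoderm that had been dissected from mouse embryos at stage E7.25, freed of other tissue with trypsin and pancreatin, and grown on fibronectin. There were 6 libraries, 2 per group. No inhibitor is named for the controls. The second group had 1 µM of a compound labelled only PD for 16 h, and the third 10 µM YZ9 for 16 h. YZ9 is a known blocker of PFKFB3, whose product stimulates glycolysis. All explants attached for 3 to 4 h first and were kept for 27 h by the culture protocol or 24 h by the series description. The genotype of every group is labelled WT, while the series description names a TCF/Lef:H2B-GFP reporter strain. The labels do not say whether controls received vehicle, or how many embryos went into a library.

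Guidance cues act in pairs of ligand and receptor. Ephrins are membrane-bound ligands, class A with a lipid anchor and class B with a transmembrane tail, and they bind Eph receptor tyrosine kinases. Signals run in both directions and commonly make cells repel each other and form boundaries. Semaphorins bind plexins, and the secreted class 3 semaphorins mostly do so through the neuropilins Nrp1 and Nrp2. Slits are secreted proteins that bind Robo receptors. In the early embryo these families are known from somite boundaries, vessel formation and the paths of neural crest cells.

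Total counts were 21253194 to 27810161 per library, and the 60 genes took 0.186% to 0.308% of them. Levels are given as CPM, the usual depth-scaled count, with library sizes adjusted by TMM, and means are given with SD over the 2 libraries of a group. Targets of ERK signalling were read beside the PD label. Of 18 targets, 5 were lower with PD at an edgeR adjusted p under 0.05 (Spry2, Spry4, Spred1, Egr1 and Ccnd1), and 0 passed with YZ9. Over all tested genes 0.0964% passed with PD. With PD 16 of the 18 lay below both controls, against 19.5% of all tested genes, and their median log2 fold change was -3.80. With YZ9 5 of the 18 lay below both controls, against 24.5%, with a median of -0.16. Spry4, a feedback inhibitor of receptor signalling, had 0 counts in both PD libraries and was at 23.6 and 26.3 CPM in controls and 16.9 and 9.65 CPM with YZ9. Of 16 mesoderm markers, Hand1 and Tbx20 of lateral and cardiac mesoderm were at 75.0 CPM or more in every library, while T, Tbx6 and Mesp1 of the streak and early mesoderm were at 0.322 CPM or less. Xist, the RNA of X inactivation, had 2119 counts in PD replicate 2, 3956 in YZ9 replicate 2 and 0 to 1 in the other 4, and 4 Y-linked genes had 3 and 0 counts in those libraries and 4286 or more in the others. By these genes the controls are male libraries, and PD replicate 2 and YZ9 replicate 2 are female, which sets embryos apart within each inhibitor group. Separate cultures are not stated for any group, so p-values measure only the spread between these libraries, which may be technical for the controls.

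In control explants the guidance genes spanned more than 3 orders of magnitude. Levels between genes were compared as CPM per kb of exon, with the exons of all annotated transcripts of a gene merged. Nrp1, the neuropilin that serves both class 3 semaphorins and VEGF, stood highest at 113 CPM per kb. Efna5, a class A ephrin, followed at 76.5 CPM per kb, and Epha4, a receptor that binds ephrins of both classes, at 30.1 CPM per kb. Efnb2, a class B ephrin of arterial and mesodermal cells, was at 16.1 CPM per kb, Efnb1 at 14.1, and Sema3e, a secreted semaphorin, at 11.8. The highest plexin was Plxnb2 at 9.80 CPM per kb, the highest Slit was Slit3 at 3.64 and the highest Robo was Robo1 at 2.32. The order of the Slits rested on length. In CPM Slit2 was at 50.85 and Slit3 at 22.07, and the merged exons of Slit2 were 25433 bp against 6067 bp for Slit3. The orders of Efnb2 and Efnb1, and of Plxnb2 and Nrp2, were within the spread between the controls, while Nrp1, Efna5 and Epha4 were apart from each other and from all lower members in both. A filter on low counts left 51 of the 60 to be tested. The other 9 (Epha5, Epha6, Epha8, Plxnb3, Robo3, Sema4a, Sema4f, Sema5b and Sema6b) had at most 14 counts in any library, and Epha8 had 0 in all.

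**Figure D1:**
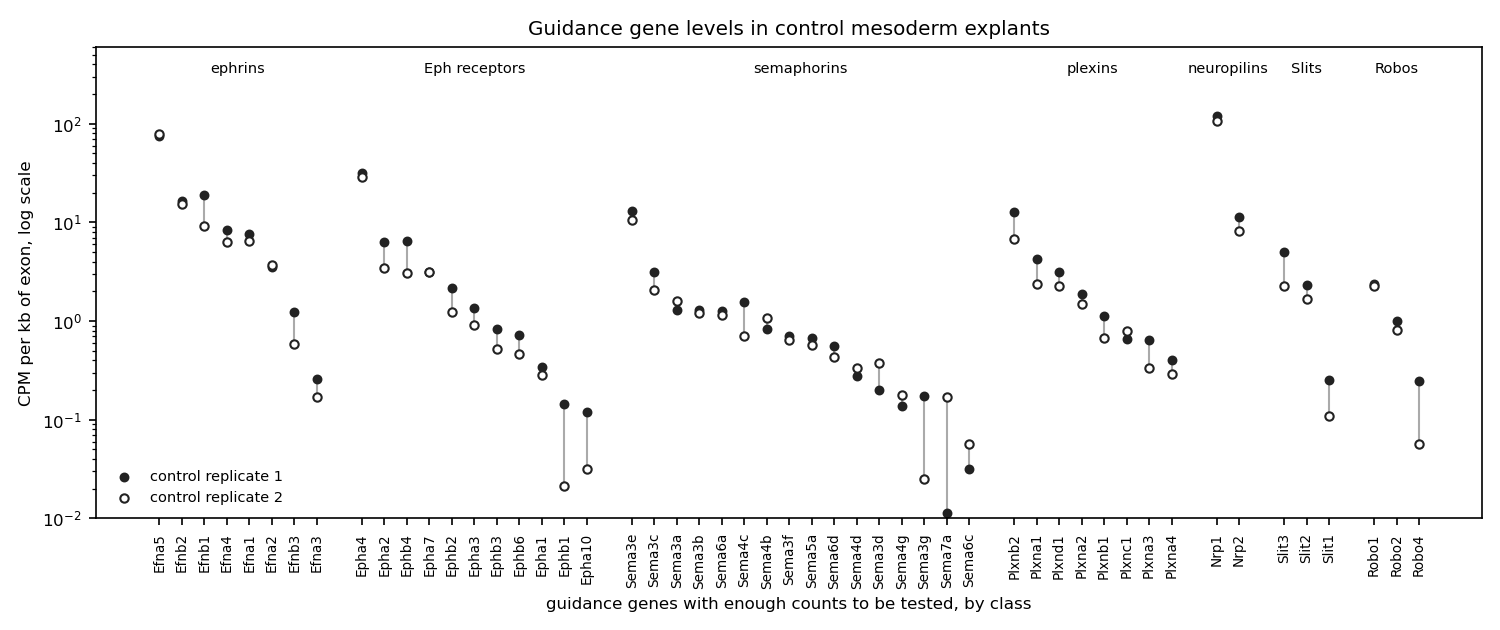
Level of each of the 51 tested guidance genes in the 2 control libraries, in CPM per kb of exon on a log axis, grouped by class and ordered by mean. Filled and open circles are control replicates 1 and 2. Nrp1, Efna5 and Epha4 lie highest, at means of 113, 76.5 and 30.1 CPM per kb, and low members such as Ephb1 and Sema7a differ most between the controls.

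The series asks how each inhibitor changes the transcriptome of mesoderm explants. The clearest difference among the guidance genes was that of Epha3, an Eph receptor that prefers class A ephrins. Its level was 9.78 ± 2.705 CPM in the controls, 9.25 ± 0.412 CPM under PD and 0.741 ± 0.0973 CPM under YZ9. The level with PD was 12.5 times that with YZ9 (adjusted p = 0.0439), which made Epha3 the 1 member of 51 called in PD against YZ9, where 0.122% of all 15568 tested genes were called. In PD against control, 0 of 51 members and 0.0964% of all genes were called, and in YZ9 against control 0 of 51 members and 0.00642% of all genes, by edgeR's quasi-likelihood test. DESeq2 without the filter called 4 of 52 members with an adjusted p with PD (against 3.64% of all genes), 3 of 50 with YZ9 (against 3.38%) and 5 of 52 in PD against YZ9 (against 3.22%). The differences described for members other than Epha3 are thus values that did not pass edgeR's test over all genes. The authors' deposited table has an adjusted p under 0.05 for 4 members higher and 1 lower of 52 with PD. With YZ9 it has 2 higher and 2 lower of 51. Over all genes it has 293 higher and 301 lower with PD, and 180 higher and 406 lower with YZ9. The share of all genes was not computed for it, so these member counts are not read as a result. The adjusted p of that table is quoted below only for the members that pass in it.

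With PD, 6 members were higher and 6 lower than control at an unadjusted p under 0.05, 11.8% of the 51 each way, where all tested genes gave 5.42% higher and 5.38% lower. The higher members were the ephrins Efna1 and Efna2, the receptors Epha7 and Ephb1, Robo2 and Sema3b. The lower members were Efnb2, Epha4, Nrp2, Plxnc1, Plxnd1 and Slit1. With YZ9, 2 members were higher (3.92%, against 4.34% of all genes) and 5 lower (9.80%, against 6.93%), shares near the background. Efna1 and Efna2 were the higher ones, and Epha3, Nrp2, Sema3b, Sema3c and Sema3e the lower ones. Log2 fold changes of at least 1 in either direction were found for 18 members with PD (35.3%, against 15.0% of all genes), for 6 with YZ9 (11.8%, against 14.8%) and for 16 in PD against YZ9 (31.4%, against 14.9%). In PD against YZ9, 5 members were higher at an unadjusted p under 0.05 (9.80%, against 7.09% of all genes) and 7 lower (13.7%, against 4.40%). Epha3, Epha7, Robo2, Sema3b and Sema3c were higher with PD, and Ephb3, Efna3, Plxnd1, Sema3f, Sema3g, Sema4g and Slit1 lower. The median log2 fold change of the members was -0.03 with PD and 0.15 with YZ9, against 0.0044 and 0.0021 for all genes. Neither median kept its sign when single controls were left out: with PD it was 0.33 without control replicate 1, and with YZ9 it was -0.17 without control replicate 2. In PD against YZ9 it was -0.10, against -0.0016 for all genes. The PD and YZ9 comparisons share both controls, so their values stand side by side and are not independent of each other.

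**Figure D2:**
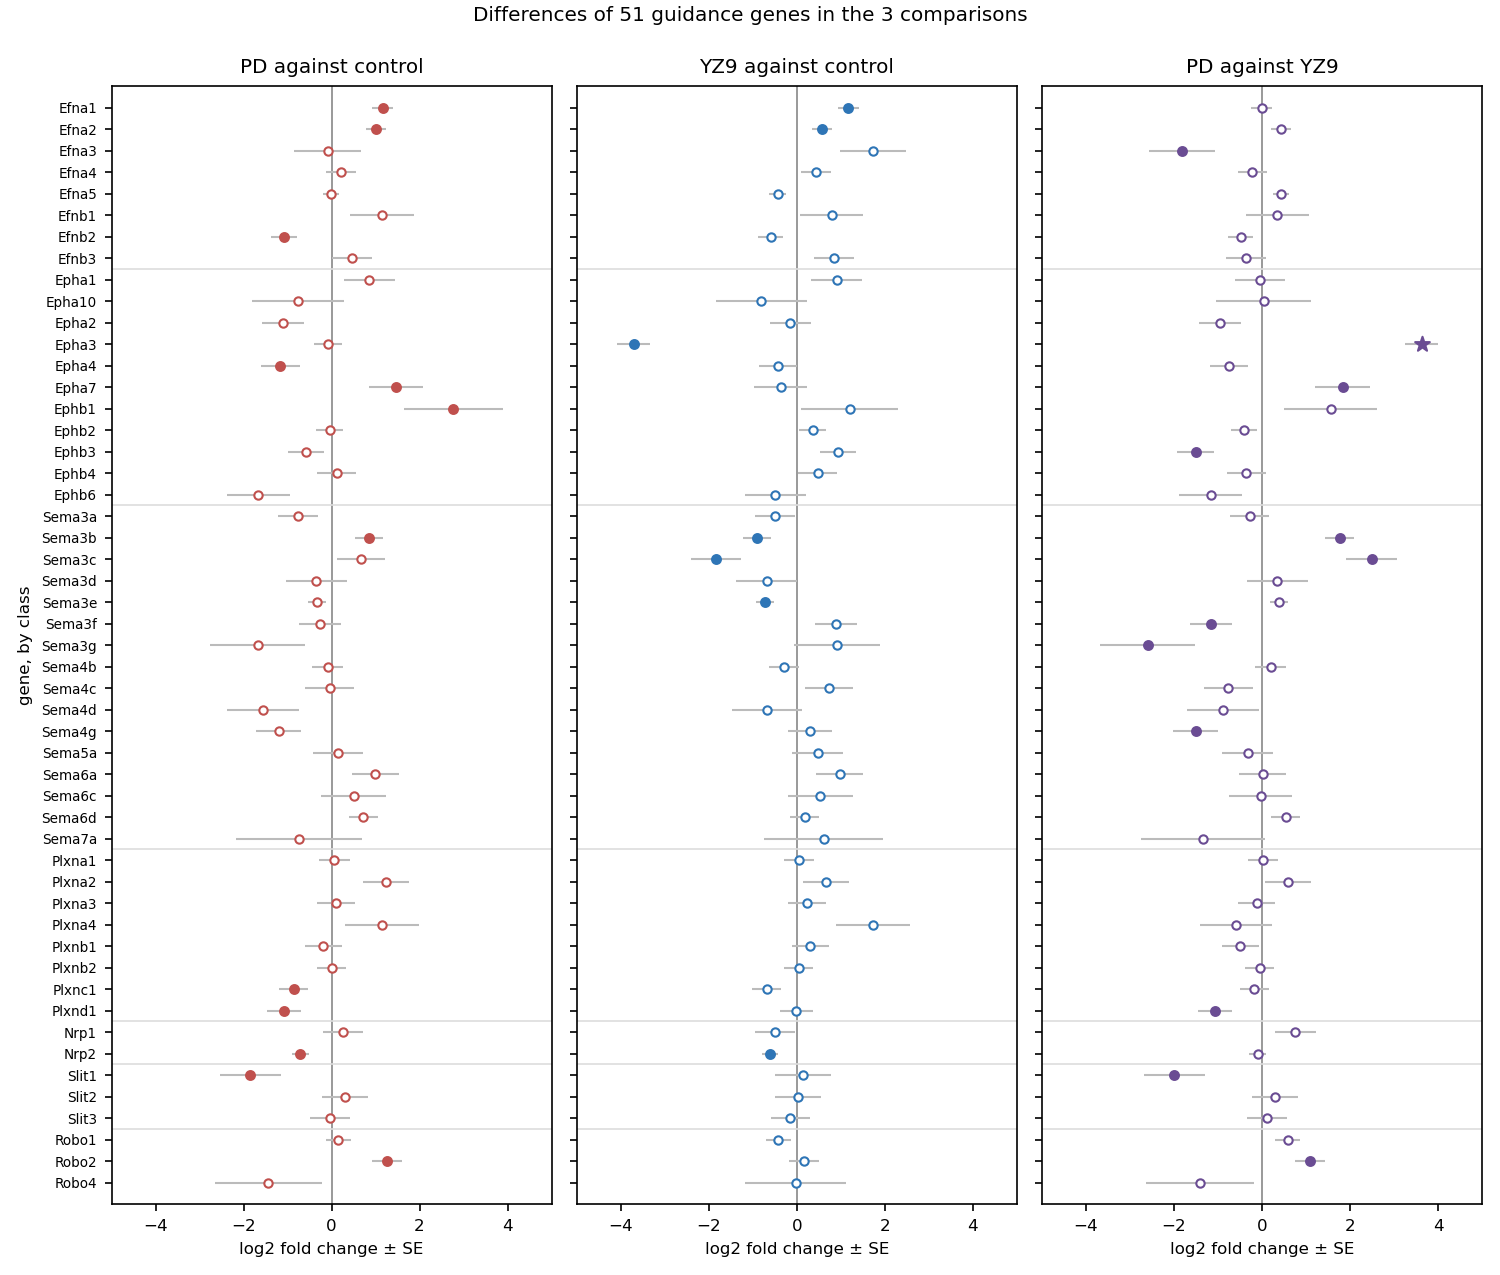
Log2 fold change with its standard error for the 51 tested guidance genes, by class from ephrins at the top to Robos at the bottom, for PD against control, YZ9 against control and PD against YZ9. Open points have an unadjusted p of at least 0.05, filled points a lower one, and the star is the 1 value with an adjusted p under 0.05, Epha3 in PD against YZ9 at 3.63. With YZ9 Epha3 lies lowest at -3.71, followed by Sema3c at -1.83.

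Among the ephrins, the ligands of the Eph system, Efna1 lay above both controls in all 4 inhibitor libraries. Efna1, a class A ephrin that binds Epha2 among others, was at 14.02 and 11.8 CPM in controls, 32.75 and 25.0 CPM with PD, and 27.2 and 30.8 CPM with YZ9. The log2 fold change was 1.16 (SE 0.24, adjusted p = 0.164) with PD and 1.17 (SE 0.24, adjusted p = 0.211) with YZ9. In the authors' deposited table the same gene has an adjusted p of 0.00844 with PD and 0.00265 with YZ9. Efna2, another class A ephrin, was at 7.61 and 7.83 CPM in controls, 16.0 and 15.2 CPM with PD, and 11.8 and 11.2 CPM with YZ9. Its replicates lay close together and the 3 groups did not overlap (log2 fold change 1.01, SE 0.24, adjusted p = 0.19 with PD, and 0.58, SE 0.23, adjusted p = 0.428 with YZ9). For Efna2 with PD the authors' deposited table has an adjusted p of 0.046. Markers of epithelial cells and definitive endoderm stood higher in the same libraries: the 10 markers, Cdh1, Epcam and the keratins Krt8 and Krt18 among them, summed to 4690 to 5312 CPM in controls, 6970 to 10920 CPM with PD and 5363 to 6653 CPM with YZ9. Krt8 and Krt18 held most of each sum, and scarcer markers differed more. Cdh1 was at 1.84 and 3.80 CPM in controls, 79.8 and 21.6 CPM with PD and 113 and 30.7 CPM with YZ9. Epcam was at 0.862 and 2.52 CPM in controls, 51.9 and 9.22 CPM with PD and 38.4 and 17.6 CPM with YZ9, and Cldn6 at 0.262 and 8.28, 448.5 and 56.5, and 199.7 and 75.5 CPM. Of 9 tested, 6 were higher at an unadjusted p under 0.05 with PD and 6 with YZ9, against 5.42% and 4.34% of all genes. Cer1 was at 0 in all but PD replicate 2. Sox17 and Trh overlapped the controls with both inhibitors. Krt18 overlapped them with YZ9, where replicate 2, at 2110 CPM, lay below both controls, at 2615 and 2597 CPM. Their part in the ephrin values was not tested. In a tissue sample, fewer cells of a type and less RNA per cell cannot be told apart.

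Efnb2 went the other way. It was at 114 and 106 CPM in controls, 67.1 and 36.9 CPM with PD, and 80.7 and 65.0 CPM with YZ9, so that all 4 inhibitor libraries lay below both controls. The log2 fold change with PD was -1.08 (SE 0.29, adjusted p = 0.234), and the authors' deposited table gives it an adjusted p of 0.0365. Efna5, the most abundant ephrin, overlapped the controls with PD, at 360 and 253 CPM against 302 and 315 CPM, and lay below them with YZ9, at 234 and 221 CPM. Efna3 was scarce, at 0.637 and 0.414 CPM in controls, 0.269 and 0.725 CPM with PD, and 1.08 and 2.43 CPM with YZ9. PD and YZ9 did not overlap for it (log2 fold change -1.82, SE 0.75, adjusted p = 0.432), with -2.70 without PD replicate 2 and -1.13 without YZ9 replicate 2. Of its exons, 344 bp overlap a gene on the opposite strand, from which an unstranded library cannot separate it. Other members have such overlaps too, among them Efna4 with 168 bp, Ephb1 with 152 bp and Plxna4 with 110 bp. Efna4 overlapped the controls in both comparisons, and Efnb3 lay above them with YZ9 alone. Efna1, Efna3 and Efna4 are neighbours on chromosome 3 of GRCm38, from 89271733 to 89338028, and of these only Efna1 lay above both controls with PD.

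Of the 11 tested Eph receptors, 2 lay above and 4 below both controls with PD, and 2 above and 3 below with YZ9. Against YZ9, 2 lay above and 4 below with PD. Over all tested genes, 19.2% lay above and 19.5% below with PD, 21.1% above and 24.5% below with YZ9, and 21.6% above and 21.4% below in PD against YZ9. The shares over the 51 members were near these, at 19.6% and 23.5%, 21.6% and 25.5%, and 19.6% and 25.5%. Epha3 (ENSMUSG00000052504) lies on the minus strand of chromosome 16, 63543534 to 63864175 in GRCm38, and none of its exons overlap another gene. It had 312 and 209 counts in the controls, 233 and 237 under PD, and 15 and 24 under YZ9. In CPM the controls were at 11.7 and 7.87, the PD libraries at 8.96 and 9.54 and the YZ9 libraries at 0.672 and 0.809. Both YZ9 libraries were thus far below the other 4, and the PD libraries lay between the controls. PD against YZ9 gave a log2 difference of 3.63 (SE 0.37, adjusted p = 0.0439). YZ9 against control gave -3.71 (SE 0.37, adjusted p = 0.114), and the control mean was 13.2 times the YZ9 mean. The authors' deposited table gives YZ9 against control a log2 fold change of -3.70 and an adjusted p of 6.61e-11.

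The size of the Epha3 difference moved little with the settings, from 3.46 to 3.76 over 15 alternatives in PD against YZ9, while its adjusted p moved from 1.06e-13 to 0.208 and was under 0.05 in 8 of them. It was 0.154 without control replicate 1, 0.154 without control replicate 2, 0.0565 without PD replicate 2, 0.197 without YZ9 replicate 1, 0.14 without YZ9 replicate 2, 0.0732 with the replicate block and 0.208 in the 4 libraries alone. In YZ9 against control it ran from -3.97 to -3.40, with an adjusted p of 4.99e-14 to 0.515 that was under 0.05 in 4 of 15. In the male libraries alone, with 1 library of each inhibitor, the log2 fold change was 3.71 in PD against YZ9 and -3.84 in YZ9 against control. Blood markers also lay below the controls with YZ9. The 11 summed to 2573 and 7543 CPM in controls, 502 and 6676 CPM with PD, and 96.4 and 1225 CPM with YZ9. Of the 11, 9 lay below both controls with YZ9, against 24.5% of all tested genes. The globins Hba-x and Hbb-bh1 held most of the sum in all but YZ9 replicate 1. The sum was lower in PD replicate 1 than in YZ9 replicate 2, but the single markers were mixed there. Hbb-y, Itga2b, Gp9 and Tubb1 were higher in PD replicate 1, as was Epha3, at 8.96 against 0.809 CPM, and the other markers lower. Tubb1, the beta-tubulin of megakaryocytes, was the single gene of all those tested that passed in YZ9 against control (log2 fold change -6.03, adjusted p = 0.0193). The part of blood cells in the Epha3 values was not tested. Of 10 other tested genes within 2 Mb of Epha3, 1 had an unadjusted p under 0.05 in YZ9 against control, Pros1, and their log2 fold changes ran from -1.22 to 0.58.

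The promoters of Epha3 and of Efnb2 are shown because the former drives the receptor with the largest difference and the latter an ephrin that lay below the controls with both inhibitors. Sequences are the 250 bases before the start site in RefSeq (GRCm38.p6), at chr16:63864176-63864425 and chr8:8661243-8661492, both on the minus strand and written 5′ to 3′. Capitals mark 3 motifs on either strand: CCGGAA, the core that ETS factors bind, GGGCGG, the GC box, and CCAAT, the CCAAT box. No matches overlap in these windows.
Epha3: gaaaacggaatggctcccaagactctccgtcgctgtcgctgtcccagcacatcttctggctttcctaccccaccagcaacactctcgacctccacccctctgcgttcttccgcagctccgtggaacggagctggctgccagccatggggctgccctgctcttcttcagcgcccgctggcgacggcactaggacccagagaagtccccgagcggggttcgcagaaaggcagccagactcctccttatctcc
Efnb2: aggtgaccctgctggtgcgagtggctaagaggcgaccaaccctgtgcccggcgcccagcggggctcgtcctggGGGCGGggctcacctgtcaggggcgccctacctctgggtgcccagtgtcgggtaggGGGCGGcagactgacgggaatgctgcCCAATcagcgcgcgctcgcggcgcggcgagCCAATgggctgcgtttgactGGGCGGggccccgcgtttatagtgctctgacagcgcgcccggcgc
The Epha3 window holds none of the 3 motifs, and that of Efnb2 holds 3 GC boxes and 2 CCAAT boxes. RefSeq windows of 300 bases, 250 before and 50 after the start, were found for 53 of the 60 genes (69 windows). The GC box was in 71% of these against 35.7% of all 32851 windows, the CCAAT box in 30.4% against 37.4%, and the ETS core in 8.7% against 14.9%. The ETS core was in windows of Ephb2, Ephb6, Plxnb1, Sema3d, Sema4a and Sema4b. These are matches of letters and say nothing of binding.

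Among the other Eph receptors, Epha2, Epha4, Ephb3 and Ephb6 lay below both controls in both PD libraries, while the higher means of Epha7 and Ephb1 rested on 1 library. Epha4 was at 253 and 232 CPM in controls, 161 and 55.95 CPM with PD, and 175 and 188 CPM with YZ9, below both controls in all 4. Its log2 fold change with PD was -1.16 (SE 0.44, adjusted p = 0.394), which moved to -2.12 (adjusted p = 0.0388) on leaving out PD replicate 1 and to -0.59 on leaving out PD replicate 2. Epha7, a class A receptor of neural and mesodermal tissue, was at 31.4 and 31.4 CPM in controls, 142.5 and 31.6 CPM with PD, and 26.8 and 22.1 CPM with YZ9. PD replicate 1 alone stood high, and the log2 fold change of 1.47 (SE 0.61, adjusted p = 0.462) became 0.0080 without it and 2.18 without PD replicate 2 (adjusted p = 0.042). Against YZ9 it was 1.83 (SE 0.62, adjusted p = 0.359). Leaving out PD replicate 1 gave 0.37 there, and leaving out PD replicate 2 gave 2.53 (adjusted p = 0.0369). Ephb1 was at 6.997 CPM in that library, against 0.966 CPM in PD replicate 2, 1.01 and 0.151 CPM in controls and 1.34 and 1.35 CPM with YZ9, so PD overlapped control (log2 fold change 2.77, SE 1.13, adjusted p = 0.448, with a range from 0.73 without PD replicate 1 to 4.68 without control replicate 1). Among visceral endoderm markers PD replicate 1 stood apart mainly in Afp. The 8 markers summed to 58.4 CPM there, against 18.7 CPM in PD replicate 2 and 12.6 and 21.8 CPM in controls. Afp made up 34.3 of the 58.4 CPM. Ttr stood above both controls in both PD libraries, at 1.73 and 0.966 CPM. Rhox5, at 19.2 CPM in PD replicate 1, was near control replicate 2, at 18.0 CPM, and Cubn, at 2.50 CPM, lay between the controls. The 5 trophoblast markers were mixed: Krt7, also a keratin of other epithelia, was at 10.6 and 16.2 CPM in controls and 292 and 37.3 CPM with PD, Gata3 and Cdx2 lay below both controls in both PD libraries, and Elf5 and Prl3d1 were at or near 0. The part of cells with these markers in the receptor values was not tested. Ephb3, a class B receptor, was at 5.47 and 3.46 CPM in controls, 3.04 and 2.94 CPM with PD, and 10.8 and 6.21 CPM with YZ9. Its 3 groups did not overlap, and the log2 difference of PD from YZ9 was -1.51 (SE 0.42, adjusted p = 0.288). Epha2, a receptor of epithelial cells, lay below both controls with PD, at 9.73 and 11.4 CPM against 29.3 and 16.1 CPM, and overlapped them with YZ9. Ephb6, a receptor without kinase activity, was at 2.74 and 1.77 CPM in controls, 0.692 and 0.725 CPM with PD and 2.55 and 0.675 CPM with YZ9, so the PD libraries were below both controls and close together. Ephb2 and Ephb4, the latter a receptor of venous endothelium that binds Efnb2, overlapped the controls in both comparisons.

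**Figure D3:**
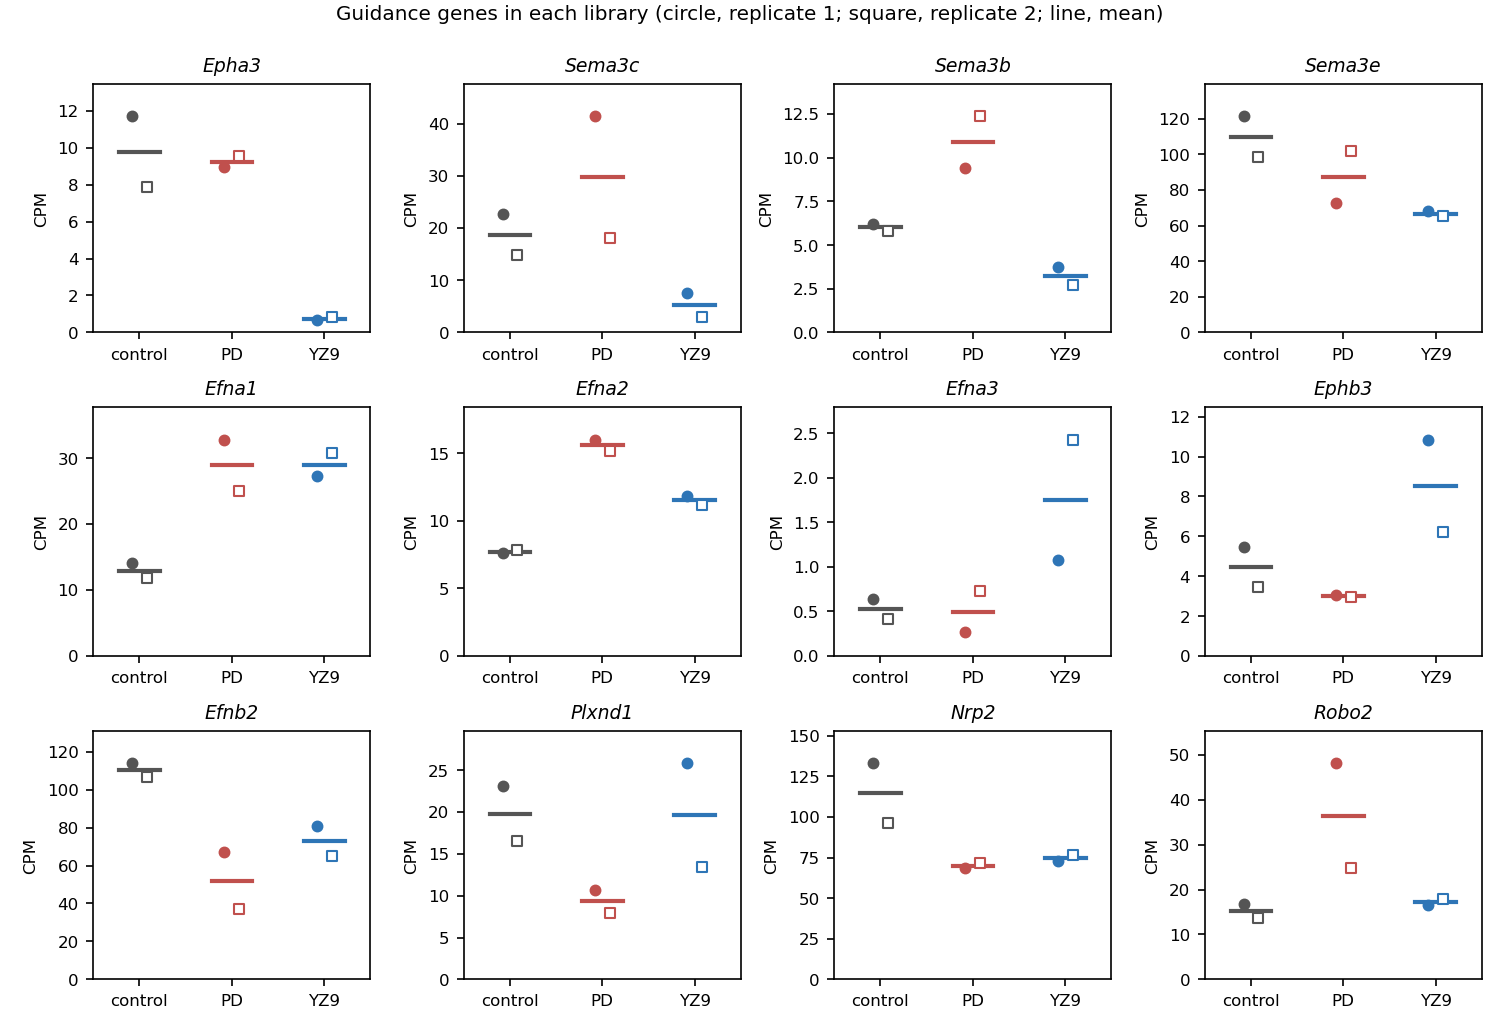
CPM of 12 guidance genes in each of the 6 libraries on linear axes from 0, with circles for replicate 1, squares for replicate 2 and lines at group means. Epha3, Sema3c, Sema3b and Sema3e are lower in both YZ9 libraries than in both controls, Efna1 and Efna2 are higher in all 4 inhibitor libraries, and Plxnd1 is low in both PD libraries, at 10.7 and 7.93 CPM.

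Of the 16 semaphorins tested, Sema3b, Sema3c and Sema3e were lower with YZ9 at an unadjusted p under 0.05, against 6.93% of all genes. These semaphorins belong to class 3, the secreted ligands of neuropilins and plexins. Sema3c, known from heart outflow tract and crest migration, was at 22.6 and 14.8 CPM in controls, 41.4 and 18.0 CPM with PD, and 7.57 and 3.00 CPM with YZ9. Both YZ9 libraries lay below the other 4 (log2 fold change against control -1.83, SE 0.57, adjusted p = 0.333, and PD against YZ9 2.50, SE 0.58, adjusted p = 0.222). Without YZ9 replicate 1 these became -2.63 and 3.30, and the latter was 1.78 without PD replicate 1. The authors' deposited table gives Sema3c an adjusted p of 0.00467 in YZ9 against control. Sema3b was at 6.22 and 5.80 CPM in controls, 9.38 and 12.4 CPM with PD, and 3.72 and 2.698 CPM with YZ9. Its 3 groups did not overlap, with PD above and YZ9 below control (PD against YZ9 log2 fold change 1.76, SE 0.33, adjusted p = 0.138). The values against control were 0.85 (SE 0.32, adjusted p = 0.394) with PD and -0.91 (SE 0.33, adjusted p = 0.388) with YZ9. Sema3e, which binds Plxnd1 without a neuropilin, was at 121 and 98.6 CPM in controls, 72.6 and 102 CPM with PD, and 68.0 and 65.1 CPM with YZ9. It lay below both controls with YZ9 (log2 fold change -0.72, SE 0.21, adjusted p = 0.305) and overlapped them with PD.

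Not every class 3 semaphorin was lower with YZ9. Sema3f, a ligand of Nrp2, was at 3.67 and 3.35 CPM in controls and 7.21 and 5.90 CPM with YZ9, and PD libraries were at 1.69 and 4.19 CPM (PD against YZ9 log2 fold change -1.16, SE 0.48, adjusted p = 0.433, and -1.96 without PD replicate 2). Sema3f and Sema3b are neighbours on chromosome 9, at 107681500 to 107710475 and 107597674 to 107609229, and with YZ9 Sema3f lay above the controls and Sema3b below them. Sema3a lay below both controls in both comparisons, at 18.0 and 22.3 CPM in controls, 17.3 and 6.32 CPM with PD and 14.9 and 13.9 CPM with YZ9, while Sema3d overlapped the controls. Sema3g was scarce, at 0.787 and 0.113 CPM in controls, 0.192 and 0.0805 CPM with PD, and 1.08 and 0.641 CPM with YZ9 (PD against YZ9 log2 fold change -2.60, SE 1.08, adjusted p = 0.433, and -3.33 without PD replicate 1). Among membrane semaphorins, Sema4g was at 1.20 and 1.54 CPM in controls, 0.50 and 0.684 CPM with PD, and 1.66 and 1.72 CPM with YZ9 (PD against YZ9 log2 fold change -1.51, SE 0.51, adjusted p = 0.359). Sema6a lay above both controls with both inhibitors, at 11.1 and 10.1 CPM in controls, 29.9 and 12.2 CPM with PD, and 29.4 and 12.2 CPM with YZ9. In each inhibitor group replicate 1, a male library, had the higher Sema6a value.

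Among the receptors of semaphorins, Nrp2, Plxnc1 and Plxnd1 were lower with PD at an unadjusted p under 0.05. Plxna2, given below, lay above both controls with PD. Nrp2 was at 133 and 96.4 CPM in controls, 68.5 and 71.5 CPM with PD, and 73.2 and 76.8 CPM with YZ9, so all 4 inhibitor libraries lay below both controls. The log2 fold change was -0.71 (SE 0.19, adjusted p = 0.231) with PD and -0.61 (SE 0.19, adjusted p = 0.326) with YZ9. Plxnd1, the receptor of Sema3e in endothelium, was at 23.1 and 16.5 CPM in controls, 10.7 and 7.93 CPM with PD, and 25.8 and 13.5 CPM with YZ9. It lay below control with PD (log2 fold change -1.09, SE 0.38, adjusted p = 0.359) and below YZ9 (log2 fold change -1.07, SE 0.38, adjusted p = 0.38), and overlapped control with YZ9. So of the Sema3e and Plxnd1 pair, the receptor lay below the controls with PD and the ligand with YZ9. Plxnc1, the receptor of Sema7a, was at 5.47 and 6.59 CPM in controls, 3.58 and 3.06 CPM with PD, and 3.67 and 3.85 CPM with YZ9, below control in both (log2 fold change with PD -0.86, SE 0.33, adjusted p = 0.401). Plxnb2, the most abundant plexin, overlapped the controls in both comparisons, at 52.3 to 99.0 CPM over the 6 libraries. Because Efnb2, Nrp2 and Plxnd1 are also genes of endothelium, 11 endothelial markers were read beside them. They summed to 364 and 337 CPM in controls, 385 and 499 CPM with PD, and 316 and 426 CPM with YZ9, and none was at 0. Tek held the largest share of the sum in all but YZ9 replicate 1, at 164 and 135 CPM in controls, 183 and 351 CPM with PD and 83.8 and 200 CPM with YZ9. With PD 2 of the 11 lay above and 4 below both controls, against 19.2% and 19.5% of all tested genes. The median log2 fold change was -0.16. Pecam1 and Tie1 were lower at an unadjusted p under 0.05, against 5.38% of all genes. With YZ9 Kdr, Esam, Cldn5 and Sox18 were higher and Pecam1 lower at that p, where all tested genes gave 4.34% higher and 6.93% lower. Their part in the values of these 3 genes was not tested.

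Slit2 and Slit3, the abundant Slits, overlapped the controls in both comparisons, with Slit3 at 30.2 and 13.9 CPM in controls, 15.1 and 28.1 CPM with PD and 22.4 and 17.5 CPM with YZ9. Slit1 was scarce, with 40 and 17 counts in the controls, 8 and 7 under PD, and 32 and 28 under YZ9. Both PD libraries lay below the other 4 (log2 fold change against control -1.84, SE 0.69, adjusted p = 0.395, and against YZ9 -1.99, SE 0.69, adjusted p = 0.369). The former was -1.11 without control replicate 1. Robo2, a receptor of Slits, was at 16.9 and 13.7 CPM in controls, 48.05 and 24.8 CPM with PD, and 16.5 and 17.9 CPM with YZ9. Both PD libraries were the highest of the 6, and the log2 fold change was 1.25 (SE 0.34, adjusted p = 0.238) against control and 1.08 (SE 0.34, adjusted p = 0.334) against YZ9. The authors' deposited table gives Robo2 an adjusted p of 0.0351 with PD. Robo1 was at 39.2 and 37.3 CPM in controls, 54.1 and 31.15 CPM with PD, and 30.2 and 26.8 CPM with YZ9, overlapping the controls with PD and lying below them with YZ9. Robo4, the Robo of endothelium, had 4 to 35 counts per library and overlapped the controls in both.

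Some members differed widely between the libraries of 1 inhibitor group. Plxna4, Sema5a and Efnb1 were over 1.5 times higher in both PD replicate 2 and YZ9 replicate 2, the female libraries, than in any of the other 4. They are 3 of 51 members (5.88%), against 0.79% of all tested genes. Plxna4, a receptor for class 3 and class 6 semaphorins, was at 5.73 and 4.07 CPM in controls, 3.38 and 18.3 CPM with PD, and 7.97 and 24.6 CPM with YZ9. Plxna4 lay above both controls with YZ9, where the authors' deposited table gives it an adjusted p of 0.0178. Plxna2, a related plexin, lay above both controls with PD, at 57.9 and 80.6 CPM against 32.5 and 25.8 CPM, and was at 21.1 and 70.8 CPM with YZ9. The authors' deposited table gives Plxna2 an adjusted p of 0.00157 with PD. Efnb1, an X-linked class B ephrin, was at 64.95 and 32.1 CPM in controls, 36.0 and 178 CPM with PD, and 59.6 and 108 CPM with YZ9. Nrp1 and Slit2 also stood higher in replicate 2 within each inhibitor group: Nrp1 was at 1160 and 1055 CPM in controls, 864 and 1793 CPM with PD, and 464.5 and 1107 CPM with YZ9. Hand1, a marker of lateral and extraembryonic mesoderm, went with these libraries, at 242 and 125 CPM in controls, 172 and 603 CPM with PD, and 179 and 459 CPM with YZ9. Mesoderm markers were mixed in this. Pdgfra, Hand2, Foxf1 and Tbx20 also stood higher in replicate 2 of both inhibitor groups, while Meis1, Gata4, Vim, Foxc1 and Foxc2 stood lower there. Foxc1 was at 7.15 and 1.29 CPM with PD and 7.70 and 2.46 CPM with YZ9. Sex, replicate and the kind of mesoderm in the explant cannot be told apart here. With sex as a covariate Nrp1 was called lower with YZ9, which the fit without sex did not call. YZ9 replicate 1 lay below both controls, while YZ9 replicate 2, at 1107 CPM, lay between them. The male libraries alone hold 1 library of each inhibitor. Their fit is counted among the alternatives, but no call is read from it by itself.

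**Figure D4:**
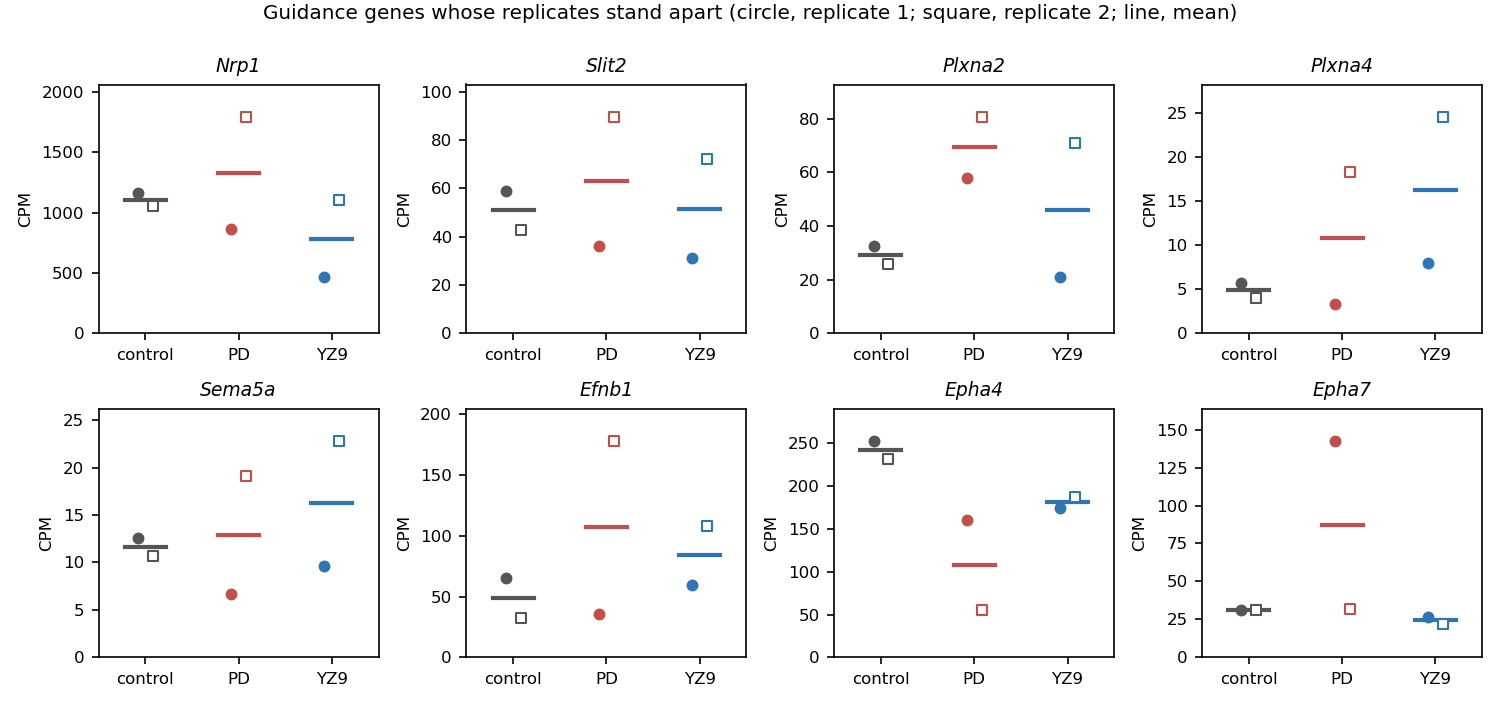
CPM of 8 guidance genes in each library on linear axes from 0, with circles for replicate 1, squares for replicate 2 and lines at group means. Nrp1, Slit2, Plxna2, Plxna4, Sema5a and Efnb1 are higher in replicate 2 of both inhibitor groups, the libraries with Xist counts, while Epha4 and Epha7 are higher in PD replicate 1 than in PD replicate 2.

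Partners of the guidance receptors were read from 4 lists. Of 20 partners of Ephs and ephrins, 0 passed over all genes in any comparison. Vav3 was at 18.7 and 29.7 CPM in controls, 9.07 and 9.70 CPM with PD, and 11.0 and 8.57 CPM with YZ9. Adam10, the protease that sheds ephrins, was at 193 and 226 CPM in controls, 236 and 265 CPM with PD, and 171 and 162 CPM with YZ9, and the 3 groups did not overlap. Rgs3, which links ephrin-B to G protein signalling, was at 36.8 and 25.9 CPM in controls, 12.6 and 14.7 CPM with PD, and 33.1 and 16.9 CPM with YZ9. Of 22 semaphorin and plexin partners, Chn2 alone passed, and it fell with PD. Chn2, a GTPase-activating protein for Rac, was at 23.2 and 24.7 CPM in controls, 4.42 and 3.78 CPM with PD, and 17.8 and 16.6 CPM with YZ9 (adjusted p = 0.0417 with PD, and adjusted p = 0.0544 in PD against YZ9). That call was already known when the list was made, so it supports nothing.

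Of 11 Slit and Robo partners, 0 passed. Flrt3, a membrane protein that binds Robo1 and UNC5 receptors, was at 171 and 123.2 CPM in controls, 815.5 and 607 CPM with PD, and 111 and 295 CPM with YZ9, with both PD libraries above the other 4. Gpc1, a heparan sulfate proteoglycan that binds Slits, was at 19.6 and 14.1 CPM in controls, 34.0 and 63.6 CPM with PD, and 24.95 and 26.5 CPM with YZ9. Of 15 netrin, RGM and UNC5 genes in the tables, 11 could be tested and 0 passed. Unc5b, a netrin receptor that also binds Robo4 and Flrt3, was at 144 and 83.2 CPM in controls, 51.5 and 56.55 CPM with PD, and 138 and 112 CPM with YZ9, and both PD libraries lay below the other 4. Ntn4, a netrin of basement membranes, had 9 counts in each control, 44 and 13 under PD, and 1 in each YZ9 library. Rgma, a ligand of Neo1, was at 1.84 and 0.64 CPM in controls, 0.807 and 0.201 CPM with PD, and 3.09 and 1.79 CPM with YZ9. Dcc, the main netrin receptor of axons, had at most 1 count in any library, while Neo1, its relative, was at 24.0 to 37.1 CPM.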

How the data were processed

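RNA was extracted from mesoderm explants and made into libraries with a template-switching kit for low input that keeps no strand. Per the submitters' processing notes, CASAVA 1.8.2, STAR 2.7.9a and DESeq2 1.40.1 were used with GRCm38. Counter, annotation release and filters: not given in the sources used here. The authors deposited whole-number counts of reads for each gene, and, per the file headers, their own log2 fold change with its standard error and the p-value and adjusted p-value of their test. The counts of both tables (46078 genes, identical controls) were joined.

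Genes were filtered with filterByExpr (minimum count 10, minimum total 15), leaving 15568, scaled by TMM and tested by the quasi-likelihood method of edgeR 4.0.16 (R 4.3.3), 2-sided, all 6 libraries in 1 fit. P-values were adjusted by Benjamini-Hochberg over all genes, with calls at 0.05. The common dispersion came to 0.101. Each SE was had by dividing the size of the log2 fold change by the root of its F statistic. Median chi-square per gene between libraries of a group was 7.38 to 8.90, so the spread between libraries exceeds counting error. Exon lengths and positions come from GENCODE M21, promoters from RefSeq. The pipeline was tested on simulated data.

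The members and gene lists were chosen with earlier results of these data known. Values in every library are given for members with an unadjusted p under 0.05 in any comparison, for those at least 4-fold apart without overlap (at least 60 counts), for the highest member of each class per length, and of the partner lists for genes past the threshold or otherwise up to 3 with the smallest p. Other members named, Sema6a, Epha2, Plxna4 and Efnb1 among them, were chosen after their values were seen. Alternatives were testing every gene, keeping genes of mean count 50 or more, DESeq2's scaling within edgeR, DESeq2 1.42.0 itself, limma-trend (limma 3.58.1, prior count 3), the 4 libraries of a comparison, the replicate number as a block, sex as a covariate and leaving out each library. The male libraries alone, both controls and 1 library of each inhibitor, were added after the data were seen.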

Additional observations from a re-analysis of the deposited data

How the results depend on the processing

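The 31 fold changes printed with an error kept their direction in all 460 values over 15 alternatives, and 16 of the 31 were past the threshold under none. The 31 were taken for an unadjusted p under 0.05 in edgeR's fit of all 6 libraries. The alternatives refit the same libraries or a part of them, so a kept direction is little evidence. Epha7 with PD, at 0.0080 without PD replicate 1, counts as kept. The number of genes called rested on the model. Without the filter edgeR called 712 genes in PD against control, 556 in YZ9 against control and 601 in PD against YZ9, among them 7, 3 and 4 guidance genes. DESeq2 called 604, 510 and 518 genes, with 4, 3 and 5 guidance genes. With sex as a covariate the counts were 124, 122 and 173, with 2 guidance genes in YZ9 against control and 2 in PD against YZ9, and in the male libraries alone 428, 183 and 132, with 3, 2 and 2 guidance genes. limma-trend called 34 genes in PD against YZ9. The 4 libraries of a comparison alone gave 5 genes in YZ9 against control and 0 in PD against YZ9, with 0 guidance genes in the latter. With the replicate block the counts were 1, 3 and 12 genes, with 0 guidance genes in PD against YZ9. Deviations of same-numbered libraries correlated at -0.0961 (control and PD), 0.149 (control and YZ9) and 0.346 (PD and YZ9) across genes, and nothing in the labels ties the numbers to a shared source. Leaving out 1 library gave 0 to 33 genes in PD against control, 0 to 9 in YZ9 against control and 0 to 35 in PD against YZ9, with 0 to 1, 0 and 0 to 2 guidance genes. Over these fits the median log2 fold change of the guidance genes was -0.14 to 0.33 with PD, -0.17 to 0.44 with YZ9 and -0.29 to -0.042 in PD against YZ9, so its sign with either inhibitor rested on single libraries. The causes were not tested, beyond fewer samples in the fits that leave out libraries. Members under about 1 CPM, such as Sema3g, Ephb1 and Slit1, rest on few counts.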
